A study of Mus musculus with 13 samples.

Results

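The genes described here are 10 members of the circadian clock whose mRNA normally peaks around dusk in mice. They are Dbp, Tef, Hlf, Per1, Per2, Per3, Nr1d1, Nr1d2, Ciart and Bhlhe41, chosen by name out of 36109 genes listed in the processed data. RNA was measured in 4 whole-heart libraries of Hmox2+/+ mice and 3 of Hmox2-/- mice, here Heart WT 1 to 4 and Heart KO 1 to 3. The study states 3 per strain for heart sequencing, and says that its sequencing data came from young mice. It was also measured in aortic endothelial cells (ECs) from 3 mice of either genotype, here EC WT 1 to 3 and EC KO 1 to 3. Hmox2 encodes heme oxygenase 2, a constitutive enzyme that breaks down heme. The Hmox2-/- mice carried a deletion for which no tissue-specific driver is described, the Hmox2+/+ mice were littermates, and the labels give room air for all libraries. EC RNA was obtained by flushing the aortic lumen with lysis reagent, with no sorting step described, and heart RNA came from powdered frozen tissue. The study calls the EC and heart samples matched, but the labels do not say which come from the same mouse. Sex, light schedule, feeding and the hour of tissue collection are not given in the sources used here, and the part of the hour in any difference below was not tested.

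The clock of a mammalian cell is a loop of transcription and repression. BMAL1, paired with CLOCK or NPAS2, binds E-boxes in DNA and switches on the genes described here. PER proteins join CRY proteins and block that activation. The REV-ERB receptors, encoded by Nr1d1 and Nr1d2, repress Bmal1, Nfil3 and other genes that peak toward dawn. DBP, TEF and HLF activate genes through D-boxes, the same element through which NFIL3 represses. Heme is a ligand of the REV-ERB receptors and binds NPAS2 and PER2 as well. In the heart the clock is known for daily rhythms of metabolism and of ion channel expression.

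Promoters of 9 of these genes, all but Per2, were found among 32851 RefSeq windows of mouse build GRCm38.p6, with more than 1 start for Tef and Per1 (11 windows). In the 250 bases before each start, the E-box letters CACGTG (the same on either strand) were found in 6.02% of all windows and in 4 of the 9 genes: Tef, Per1, Ciart and Bhlhe41. The D-box letters TTATGNAA, sought on both strands, were found in 3.07% of all windows and in 2 of the 9 genes, Per1 and Per3. The ROR element core TAGGTCA was found in 2.23% of all windows and in none of the 11. The cAMP response element TGACGTCA was found in 1.55% of all windows and in 1 gene, Hlf. No match of these 4 motifs was found in the windows of Dbp, Nr1d1, Nr1d2 and the second window of Per1. The searched motifs do not overlap each other in these windows.

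Ciart and Per3 are shown in full because they carried repeated matches: 3 E-boxes in Ciart, a number reached by 0.0609% of windows, and a pair of D-boxes in Per3, a number reached or passed by 0.128% of windows. Both lines read 5′ to 3′ on the minus strand toward the start, with the matches in capitals (Ciart at chr3:95882229-95882478, Per3 at chr4:151044666-151044915).
Ciart: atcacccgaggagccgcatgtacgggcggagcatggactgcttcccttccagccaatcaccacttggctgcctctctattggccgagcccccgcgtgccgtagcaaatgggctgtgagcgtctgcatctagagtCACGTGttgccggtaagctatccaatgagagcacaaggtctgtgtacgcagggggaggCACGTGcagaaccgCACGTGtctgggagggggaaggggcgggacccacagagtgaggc
Per3: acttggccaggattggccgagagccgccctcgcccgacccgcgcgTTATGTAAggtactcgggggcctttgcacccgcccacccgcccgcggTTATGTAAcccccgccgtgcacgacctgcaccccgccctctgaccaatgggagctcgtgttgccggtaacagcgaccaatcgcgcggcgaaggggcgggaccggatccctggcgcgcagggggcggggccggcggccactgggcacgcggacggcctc

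The remaining matches are shown with the bases on either side of them, to set the same core letters against different surroundings. The E-box of Bhlhe41 lies 153 to 148 bases before the start, that of Per1 166 to 161 bases, and those of Tef 127 to 122 and 138 to 133 bases before 2 separate starts.
Bhlhe41 E-box: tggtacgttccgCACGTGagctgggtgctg
Per1 E-box: agcacccaagtcCACGTGcagggatgtgtg
Tef E-box, start 1: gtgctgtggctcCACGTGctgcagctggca
Tef E-box, start 2: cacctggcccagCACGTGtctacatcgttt
Per1 D-box: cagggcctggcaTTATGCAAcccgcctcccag
Hlf cAMP response element: cggtgcgggcccTGACGTCAc

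**Figure D1:**
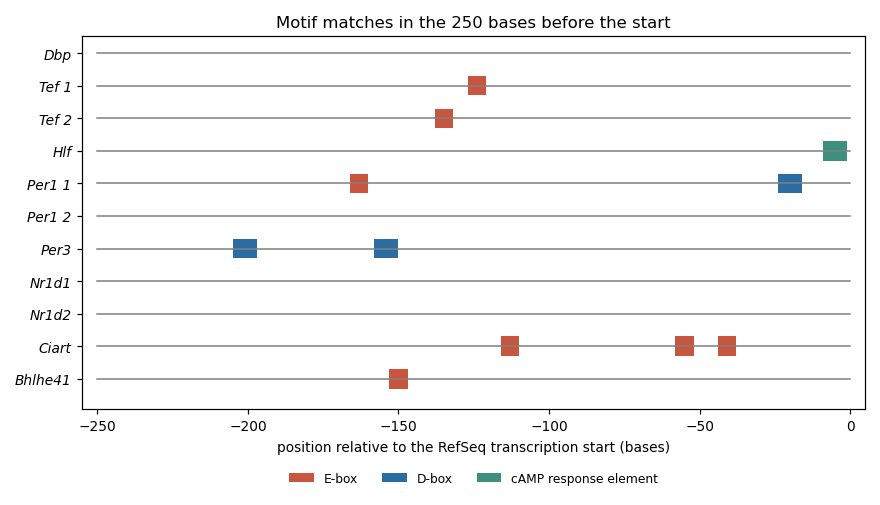
Matches of the E-box, D-box and cAMP response element (coloured boxes) along the 250 bases before each RefSeq start (grey lines, 1 per window; x axis in bases, 0 at the start). The 7 E-box matches fall in Tef, Per1, Ciart and Bhlhe41, the 3 D-box matches in Per1 and Per3, and 4 windows are empty.

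Heart libraries held 29815090 to 31619776 estimated counts except Heart WT 1, which held 7268626, and EC libraries held 26067147 to 31138642. CPM values below are counts per 1e6 of the library size, adjusted by the trimmed mean of M-values (TMM). Tests are edgeR quasi-likelihood F-tests within a tissue with Benjamini-Hochberg adjusted p-values over all genes tested, and a gene is called at an adjusted p of at most 0.05. Hmox2 was 37.3 to 42.5 CPM in Heart WT and 7.53 to 8.90 CPM in Heart KO, and 63.9 to 76.2 CPM in EC WT and 12.6 to 14.8 CPM in EC KO. In TPM the gap was narrower, with Hmox2 at 25.9 to 34.4 TPM in Heart WT and 15.9 to 18.5 TPM in Heart KO, and at 51.3 to 61.6 TPM in EC WT and 19.0 to 32.05 TPM in EC KO. Every Hmox2-/- library was thus lower than every Hmox2+/+ library of its tissue on either scale, while values for the whole gene do not separate the deleted part from what remains. Mitochondrially encoded genes took 37.6% to 44.3% of the counts in Heart WT, 22.5% to 27.2% in Heart KO and 19.4% to 30.9% in ECs. The summed TPM of 8 cardiomyocyte markers was 27219 to 35322 in Heart WT and 43828 to 50360 in Heart KO. The summed TPM of the following markers was higher in Heart KO too, with no overlap between the genotypes. The 3 erythroid markers summed to 210 to 470.2 TPM in Heart WT and 1508 to 2232 TPM in Heart KO, 5 smooth muscle markers summed to 67.7 to 101 against 128 to 186 TPM, 5 fibroblast markers to 182 to 222 against 285 to 343 TPM, 4 macrophage markers to 23.4 to 32.9 against 50.1 to 81.2 TPM and 8 endothelial markers to 108 to 147 against 184 to 200.4 TPM. In the tests on counts, some of these lists were split. Of 8 cardiomyocyte markers, 3 were called higher and 1 lower (median 0.15 log2). Of 8 endothelial markers, 3 were called higher and 1 lower (0.09), and of 5 fibroblast markers 1 and 1 (-0.03). The erythroid (3 of 3), smooth muscle (2 of 5) and macrophage (2 of 4) lists had calls only higher. Over all genes, 17.2% were called higher and 16.2% lower. The 8 endothelial markers summed to 666 to 1319 TPM in EC WT and 1509 to 1655 TPM in EC KO, beside 2641 to 3861 TPM for 5 adipocyte markers over the EC libraries, so the RNA labelled as endothelial also held adipocyte transcripts. It held transcripts of other cells as well, in amounts that differed between the EC groups: cardiomyocyte markers summed to 100.3 to 604 TPM in EC WT and 5.49 to 9.41 TPM in EC KO, and fibroblast markers to 850.4 to 1773 TPM and 2221 to 3045 TPM. Smooth muscle markers were at 1892 to 3046 TPM in EC WT and at 2192, 564 and 603 TPM in EC KO 1 to 3, so EC KO 1 lay among the EC WT libraries. The part of these markers in the clock gene values of either tissue was not tested. In tissue RNA, fewer cells of a type and less RNA per cell cannot be told apart.

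In hearts of Hmox2-/- mice, 10 of the 10 dusk genes were lower than in hearts of Hmox2+/+ mice at an adjusted p of at most 0.05, where 16.2% of the 13816 genes tested were called lower and 33.4% in either direction. Their median log2 fold change was -1.33, against -0.01 for all genes tested. When a log2 fold change of 1 or more in size was also required, as for a differentially expressed gene (DEG), 7 of the 10 passed, against 4.05% of all genes in the same direction. The CPM values of the genotypes did not overlap for 9 of the 10, where 19.8% of all genes had every Heart KO library below every Heart WT library. The exception was Per2, for which Heart WT 1 lay within the Heart KO range. On the TPM scale, which divides by transcript length and is not rescaled between libraries, 6 of the 10 did not overlap (4.63% of all genes with Heart KO lower). Tef, Hlf, Per2 and Nr1d2 overlapped there. The count of called members was 10 without Heart WT 1, the shallow library, and 10 with mitochondrially encoded genes left out. The latter setting changed little over all genes (4618 called in the main fit, 4601 without them). The part of the mitochondrial share in the clock gene differences was not tested by it.

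**Figure D2:**
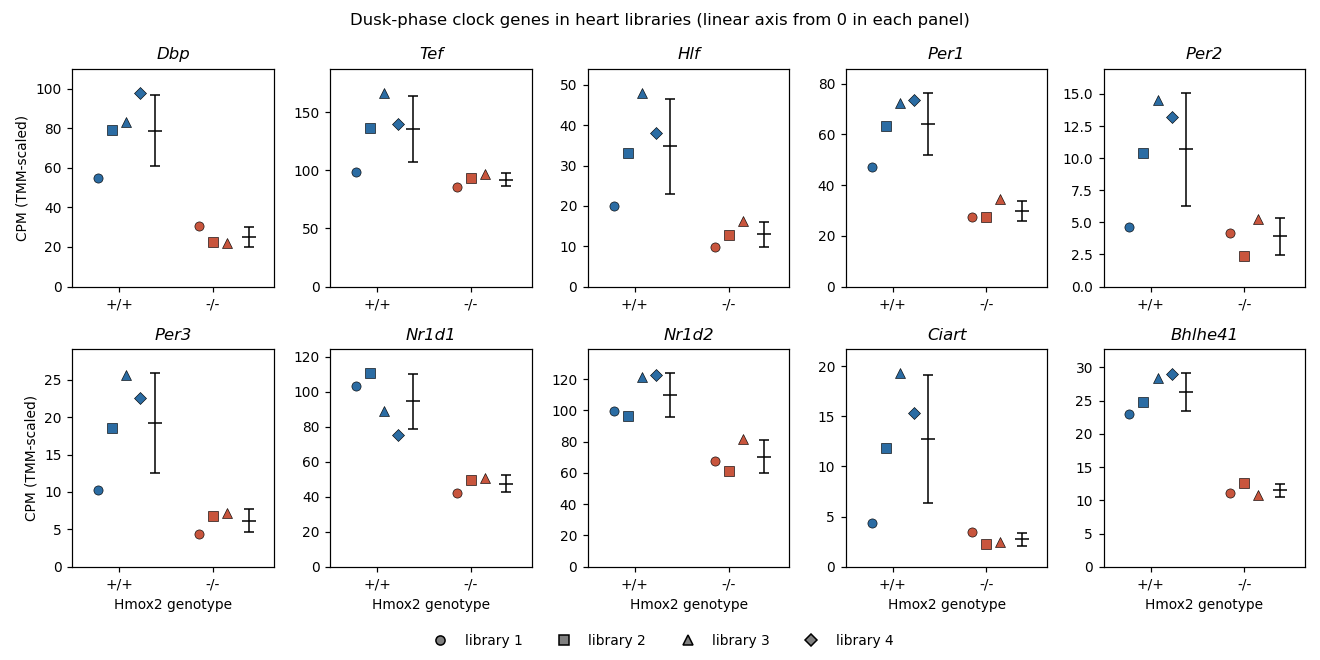
CPM (TMM-scaled, linear axis from 0 in each panel) of the 10 genes in heart libraries, with Hmox2+/+ in blue, Hmox2-/- in red, a symbol for each library number, and the mean ± SD to the right of each group. Red points lie below all blue points in every panel except Per2, and Heart WT 1 (blue circle) is the lowest blue point in 8 of 10 panels.

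DBP, TEF and HLF are the PAR bZIP factors, output regulators of the clock that drive genes of metabolism and detoxification. Dbp (chromosome 7, 45354512 to 45359627, plus strand of GRCm39) was measured at 54.9, 79.3, 83.1 and 97.9 CPM in Heart WT 1 to 4 and at 30.8, 22.4 and 21.9 CPM in Heart KO 1 to 3. The highest Hmox2-/- heart was thus well under the lowest Hmox2+/+ heart, giving a log2 fold change of -1.66 with an SE of 0.19 (adjusted p = 0.000159). Hlf (chromosome 11, 90227221 to 90281761, minus strand) stood at 19.9, 33.0, 48.0 and 38.1 CPM in Heart WT and 9.90, 12.9 and 16.2 CPM in Heart KO. Here the groups came closer, since Heart WT 1 was near the upper Heart KO library, and Hlf fell by 1.45 on the log2 scale (SE 0.25, adjusted p = 0.00208). Tef (chromosome 15, 81686622 to 81711064, plus strand) had 98.3, 137, 167 and 140 CPM in Heart WT and 85.8, 93.5 and 97.0 CPM in Heart KO. Its shift was the smallest of the 10, at -0.56 log2 (SE 0.15, adjusted p = 0.0152), with less than 2 CPM between the groups. Without Heart KO 2 the adjusted p of Tef was 0.0531, and with all 13 libraries in 1 fit it was 0.123.

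The period genes encode the repressors that, with cryptochromes, close the negative limb of the loop. Per1 (chromosome 11, 68986035 to 69002300, plus strand), which also responds quickly to hormonal and cAMP signals, was at 47.1, 63.2, 72.6 and 73.7 CPM in Heart WT and 27.3, 27.6 and 34.4 CPM in Heart KO. The groups were separated by a wide gap, at a log2 fold change of -1.12 with an SE of 0.15 (adjusted p = 0.000651). Per3 (chromosome 4, 151081373 to 151129140, minus strand), whose protein is not required for the loop itself, had 10.3, 18.5, 25.6 and 22.6 CPM in Heart WT and 4.41, 6.81 and 7.21 CPM in Heart KO. It fell by 1.69 on the log2 scale (SE 0.26, adjusted p = 0.00135). Per2 (chromosome 1, 91343700 to 91387069, minus strand), the period gene most needed for rhythm in mice, was low throughout, with 4.61, 10.4, 14.5 and 13.2 CPM in Heart WT and 4.14, 2.36 and 5.24 CPM in Heart KO. Heart WT 1, with 31 counts of Per2, fell inside the range of Heart KO, and the other Heart WT libraries were at least 10.4 CPM. For Per2 the fit gave -1.50 log2 with an SE of 0.33 (adjusted p = 0.00666), and -1.70 without Heart WT 1 (adjusted p = 0.00257). With all libraries in 1 fit the adjusted p of Per2 was 0.0552.

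Nr1d1 and Nr1d2 encode REV-ERB alpha and REV-ERB beta, the heme-binding repressors of Bmal1. Nr1d1 (chromosome 11, 98658752 to 98666188, minus strand) was measured at 103, 111, 88.7 and 75.3 CPM in Heart WT and 42.0, 49.5 and 50.8 CPM in Heart KO. Every Hmox2-/- heart was lower, at a log2 fold change of -0.99 with an SE of 0.14 (adjusted p = 0.000657). It was the only one of the 10 genes with its highest values in Heart WT 1 and 2 rather than Heart WT 3 and 4. Nr1d2 (chromosome 14, 4230545 to 4266624, plus strand) was at 99.5, 96.3, 122 and 122 CPM in Heart WT and 67.9, 61.2 and 81.7 CPM in Heart KO, at -0.65 log2 with an SE of 0.13 (adjusted p = 0.00419). With an offset for transcript length and GC content, the estimate for Nr1d2 was -0.31 (adjusted p = 0.0227). With the replicate number as a block as well, it was -0.26 (adjusted p = 0.0644). Nr1d1 lies opposite to Thra, the thyroid hormone receptor alpha gene, with 1694 exon bases in common (52.3% of those of Nr1d1) and 51% of its 31-base words shared. Default pseudoalignment ignores the strand, so reads from the shared stretch could have been counted for either gene. Thra differed by -0.05 log2 between heart groups (SE 0.09, adjusted p = 0.704). Between EC groups it differed by -0.55 (SE 0.24, adjusted p = 0.148), with a tissue by genotype estimate of 0.54 (SE 0.25, adjusted p = 0.128). The part of Thra reads in the Nr1d1 values was not tested.

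CIART and BHLHE41 (also called DEC2) are repressors that bind to or compete with the BMAL1 and CLOCK complex. Ciart (chromosome 3, 95785815 to 95789991, minus strand), whose promoter carries the 3 E-boxes printed above, had 4.31, 11.9, 19.3 and 15.3 CPM in Heart WT and 3.50, 2.27 and 2.48 CPM in Heart KO. It had the largest fold change of the 10 genes, with a log2 value of -2.26 (SE 0.37, 95% interval -3.07 to -1.46, adjusted p = 0.00157). Heart WT 1, with 29 counts of Ciart, was nearly as low as Heart KO 1, which had 119 counts in a deeper library. In TPM, Ciart was 11.0 ± 4.80 (SD, n = 4) in Heart WT and 4.02 ± 0.24 (SD, n = 3) in Heart KO, and counts derived from TPM gave a log2 fold change of -1.85. Bhlhe41 (chromosome 6, 145803969 to 145811430, minus strand) varied least among Heart WT libraries (coefficient of variation 10.9%), at 23.1, 24.8, 28.4 and 29.0 CPM in Heart WT and 11.1, 12.6 and 10.7 CPM in Heart KO. Its log2 fold change of -1.21 (SE 0.12) had the lowest adjusted p of the 10, 6.2e-05.

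Genes at the opposite phase of the loop were listed as the activators and dawn genes Bmal1, Clock, Npas2, Cry1 and Nfil3. In heart, 3 of these 5 were called higher in Hmox2-/- mice and 0 lower, where 17.2% of all genes were called higher, and the median log2 fold change of the list was 0.60. Bmal1, the core activator and a REV-ERB target, was 7.14, 4.95, 2.06 and 2.97 CPM in Heart WT and 9.08, 13.5 and 12.6 CPM in Heart KO (log2 fold change 1.58, SE 0.31, adjusted p = 0.00413). Nfil3, the D-box repressor, rose by 0.91 log2 (adjusted p = 0.00666), and the repressor Cry1 by 0.60 (adjusted p = 0.021). Clock differed by -0.17 log2 (adjusted p = 0.418) and Npas2 by -0.01 (adjusted p = 0.986), with overlapping groups for each.

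Each gene's log2 CPM was centred on its mean over the libraries of the tissue and averaged over each list. The mean of the 10 dusk genes minus that of the 5 activators and dawn genes was -0.11, 0.66, 1.29 and 1.14 in Heart WT 1 to 4 and -0.82, -1.20 and -0.95 in Heart KO 1 to 3. The Heart WT libraries therefore spread over more of the scale than the Heart KO libraries, with Heart WT 1 the nearest to Heart KO. In EC WT 1 to 3 the same value was -0.80, 0.50 and 0.69, and in EC KO 1 to 3 it was -1.85, 0.94 and 0.52. Among ECs the low values belonged to the first library of each genotype, not to a genotype.

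**Figure D3:**
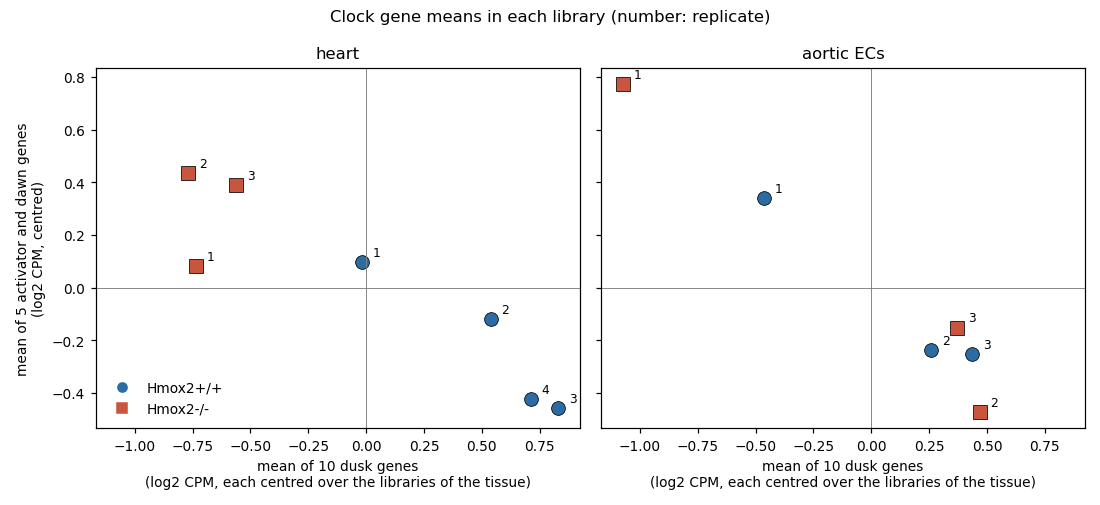
Mean centred log2 CPM of the 10 dusk genes (x axis) against that of the 5 activators and dawn genes (y axis) in each heart library (left) and EC library (right), numbered by replicate, with circles for Hmox2+/+ and squares for Hmox2-/-. The 3 Heart KO libraries lie to the left of all Heart WT libraries and above them, except that Heart KO 1 (0.08) and Heart WT 1 (0.10) are at nearly the same height, while EC WT 1 and EC KO 1 lie at the upper left of the other EC libraries of both genotypes.

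In heart, the remaining clock lists differed in how many of their genes were called. Of 5 further clock factors, 4 were called lower: Cry2, the second cryptochrome (38.4 ± 2.07 CPM in Heart WT, n = 4, and 20.2 ± 3.97 CPM in Heart KO, n = 3; log2 fold change -0.93), Rora, which encodes an activator of Bmal1 (31.9 ± 5.22 and 17.4 ± 4.45 CPM; -0.89), Bhlhe40, the paralog of Bhlhe41 (48.9 ± 1.92 and 35.3 ± 6.26 CPM; -0.47), and Rorb, which encodes another ROR receptor (1.34 to 2.27 CPM in Heart WT and 0.558 to 1.14 CPM in Heart KO; -1.04). Of 8 tested kinases and ubiquitin ligases that act on clock proteins, 1 was called lower (Gsk3b, -0.52) and 1 higher (Csnk2b, 0.41), and the median of the list was -0.14. Of 12 rhythmic output genes, 4 were called lower and 0 higher. In neither of these lists was the share called in either direction above the 33.4% of all genes. The 4 rhythmic outputs were Usp2, a deubiquitinase (105 ± 21.0 CPM in Heart WT and 70.1 ± 1.86 CPM in Heart KO; -0.59), Klf9, Coq10b and Cirbp, a cold-inducible RNA-binding protein (-0.56, -0.78 and -0.49).

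Per1 and several other clock genes respond to hormones and to immediate stimuli, so lists for these were set beside the clock genes. Of 11 tested immediate early genes, 5 were called lower in Heart KO (Fos by -2.21 log2, Nr4a3 by -1.09 and Junb by -0.76, beside Nr4a1 and Sik1) and 0 higher, with a list median of -1.03. Nr4a1, an orphan nuclear receptor induced by cAMP, was 52.1 ± 8.04 CPM in Heart WT (n = 4) and 20.8 ± 1.51 CPM in Heart KO (n = 3), -1.32 on the log2 scale (adjusted p = 5.39e-05). Sik1, a cAMP-induced kinase, was 60.0 ± 11.7 and 26.0 ± 3.87 CPM (-1.20, adjusted p = 0.000418). Of 12 genes induced by glucocorticoids, 2 were called lower, among them Klf9 (-0.56 log2), and 5 higher (Cdkn1a, 1.499, the metallothioneins Mt2 and Mt1, 1.31 and 1.07, Fkbp5, 0.70, and Ddit4, 0.69), with a median of 0.04. Over all genes tested in heart, 16.2% were called lower and 17.2% higher. The part of either stimulus in the clock gene differences was not tested.

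In aortic ECs, 0 of the 10 dusk genes were called, where 18.1% of 15301 genes tested were. At an unadjusted p of at most 0.05 the edgeR count was also 0, and DESeq2 called 0. With the replicate number as a block in edgeR, Dbp (adjusted p = 0.0376) and Per1 (adjusted p = 0.0413) were called lower in EC KO. The labels do not say that this number marks a mouse, litter or day. The CPM ranges of the genotypes overlapped for all 10 genes, and 5 fold changes were below 0 and 5 above, with a median of 0.02 log2. EC WT 1 was the lowest EC WT library for 10 of 10 genes and EC KO 1 the lowest EC KO library for 10 of 10. The highest library of a group was a median of 1.66 times its lowest for these genes in EC WT and 3.10 times in EC KO, against 1.74 times in Heart WT and 1.37 times in Heart KO.

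**Figure D4:**
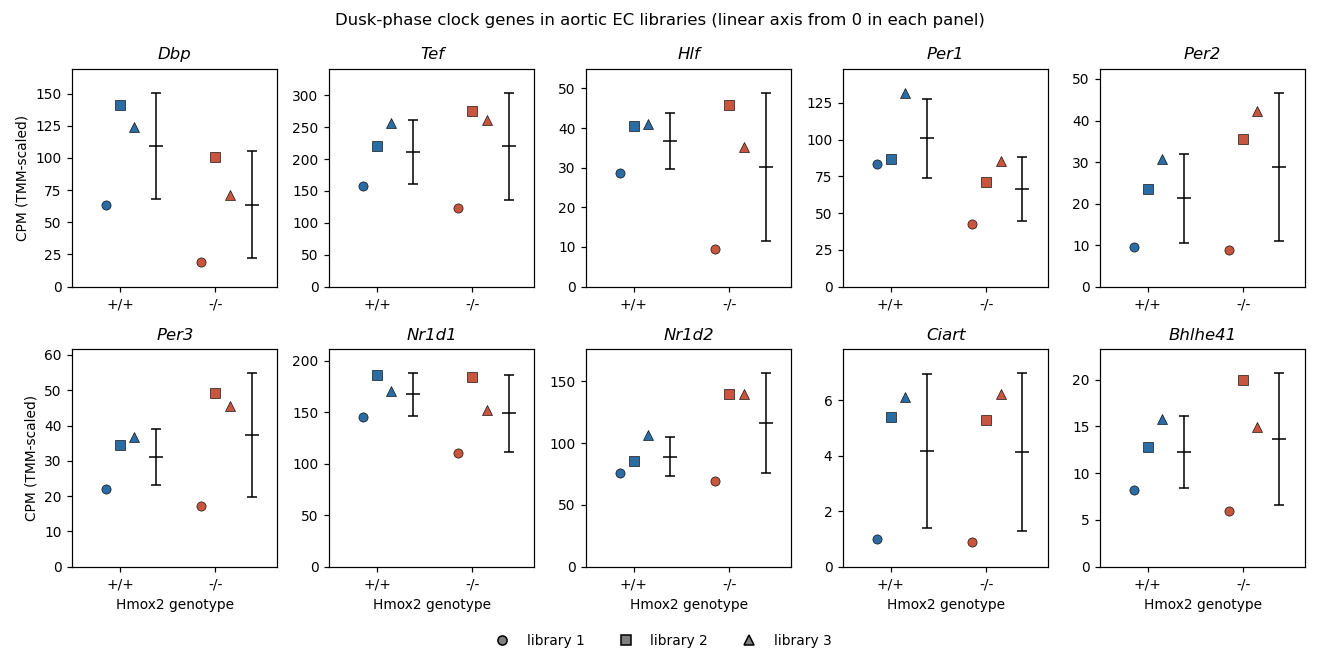
CPM (TMM-scaled, linear axis from 0 in each panel) of the 10 genes in EC libraries, with Hmox2+/+ in blue, Hmox2-/- in red, a symbol for each library number, and the mean ± SD to the right of each group. The genotypes overlap in every panel, and library 1 (circle) is the lowest point of its group in every panel.

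Among the output factors, Dbp was 63.0, 141 and 124 CPM in EC WT 1 to 3 and 18.8, 101 and 71.4 CPM in EC KO 1 to 3, -0.79 on the log2 scale (95% interval -2.07 to 0.50, adjusted p = 0.344). Hlf was 28.7, 40.6 and 41.1 CPM in EC WT and 9.56, 45.9 and 35.3 CPM in EC KO, -0.28 on the log2 scale (interval -1.40 to 0.83). Tef was 157, 220 and 257 CPM in EC WT and 123, 275 and 262 CPM in EC KO, 0.06 on the log2 scale (interval -0.68 to 0.79). For each of these genes EC KO 1 was the lowest of the 6 libraries. EC KO 2 and EC KO 3 were below EC WT 2 and EC WT 3 for Dbp, and above them for Tef.

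Per1 had the lowest p of the 10 genes in ECs, with 83.4, 87.1 and 132 CPM in EC WT and 42.6, 71.3 and 85.6 CPM in EC KO (log2 fold change -0.60, interval -1.25 to 0.05, adjusted p = 0.169). Per2 was 9.56, 23.6 and 30.6 CPM in EC WT and 8.71, 35.6 and 42.4 CPM in EC KO (0.44, interval -0.93 to 1.81). Per3 was 21.9, 34.5 and 36.8 CPM in EC WT and 17.1, 49.2 and 45.6 CPM in EC KO (0.26, interval -0.62 to 1.15). For the latter 2 genes, EC KO 2 and EC KO 3 were the highest EC libraries while EC KO 1 was the lowest.

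Nr1d1 varied least among the 10 genes within ECs, from 145 to 186 CPM in EC WT and from 110 to 184 CPM in EC KO (log2 fold change -0.17, interval -0.63 to 0.30). Nr1d2 ranged from 75.5 to 106 CPM in EC WT and was 69.2, 139 and 140 CPM in EC KO (0.38, interval -0.25 to 1.02). Ciart was 0.997, 5.38 and 6.12 CPM in EC WT and 0.885, 5.29 and 6.22 CPM in EC KO (-0.02, interval -1.84 to 1.80). The pattern of the 3 Ciart libraries was thus nearly the same in each genotype, with 27 and 25 counts in the low libraries. Bhlhe41 ranged from 8.20 to 15.9 CPM in EC WT and from 5.99 to 19.96 CPM in EC KO (0.15, interval -0.83 to 1.13). The intervals of Dbp, Tef and Per1 reached down to the heart estimate of the same gene, and those of the other 7 genes did not.

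Bmal1, Npas2 and Nfil3 were highest in the first EC library of each genotype. Bmal1 was 7.64, 5.21 and 3.58 CPM in EC WT 1 to 3 and 16.5, 3.10 and 4.86 CPM in EC KO 1 to 3, the reverse of the dusk genes, which were lowest in those libraries. Npas2 was 10.6, 2.67 and 4.45 CPM in EC WT and 15.6, 3.26 and 2.91 CPM in EC KO. Nfil3 was 20.8, 9.46 and 10.7 CPM in EC WT and 23.2, 6.13 and 11.0 CPM in EC KO. Clock was also highest there, by a small margin, at 51.2, 31.2 and 41.7 CPM in EC WT and 46.8, 37.9 and 40.9 CPM in EC KO. Cry1 was instead lowest in the first library of each genotype, as the dusk genes were, at 2.84, 7.35 and 3.99 CPM in EC WT and 4.39, 5.29 and 6.44 CPM in EC KO. None of the 5 activators and dawn genes was called between EC genotypes. In the other clock and stimulus lists, 2 genes were called in ECs, both higher in EC KO. Rorb had 2 to 8 counts in EC WT (0.0618 to 0.295 CPM) and 81 to 109 counts in EC KO (2.98 to 3.86 CPM), which the fit put at 4.37 log2 with an SE of 0.51 (adjusted p = 0.00366), against -1.04 in heart. Klf10, a rhythmic transcription factor gene, was 34.2 to 49.3 CPM in EC WT and 58.4 to 73.2 CPM in EC KO, with a log2 difference of 0.65 (adjusted p = 0.0356). Ddx3y, a Y-linked gene, was near 1 CPM in EC KO 2 and EC KO 3 and at 61.7 CPM or more in the other EC libraries. Eif2s3y, also Y-linked, ran from 0.460 to 66.8 CPM in EC KO and from 54.2 to 65.5 CPM in EC WT. Uty and Kdm5d, Y-linked too, ran from 2.68 to 22.8 and from 2.28 to 22.1 CPM in EC KO. In EC WT they ran from 12.9 to 19.6 and from 14.2 to 18.6 CPM. Every heart library had 37.0 CPM or more of Ddx3y. The EC KO group was thus mixed in Y-linked RNA, with EC KO 1 apart from its group in Ddx3y. The part of that difference in the clock gene levels, and in the EC and interaction tests, was not tested.

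A tissue by genotype term asked whether the heart and EC differences themselves differed. All 10 estimates were below 0, and 4 genes were called: Per3 (-1.90, SE 0.51, adjusted p = 0.0137), Nr1d2 (-0.99, SE 0.31, adjusted p = 0.03), Nr1d1 (-0.78, SE 0.26, adjusted p = 0.0346) and Bhlhe41 (-1.31, SE 0.44, adjusted p = 0.0382). Of the 15938 genes tested, 12.7% were called in this direction and 28.8% in either. Per2 (-1.89, adjusted p = 0.0683) and Ciart (-2.18, adjusted p = 0.0813) had larger estimates with larger errors. For Dbp the estimate was -0.83 (adjusted p = 0.316) and for Per1 -0.47 (adjusted p = 0.309), so a difference between tissues was not shown for them. Of the 4 called genes, Nr1d1 was called under every alternative that kept all libraries, but lost its call in 8 of the 13 fits with a library left out. Per3 kept its call whichever library was left out. Nr1d2 was -0.32 (adjusted p = 0.417) with the offset for length and GC content, Bhlhe41 was -0.71 (adjusted p = 0.265) with counts derived from TPM and -1.21 (adjusted p = 0.0567) with the offset, and Per3 was -1.41 (adjusted p = 0.105) with protein-coding transcripts alone. The count was 9 without EC KO 1 and 1 without EC WT 1, EC KO 2, EC KO 3, Heart KO 1, Heart KO 2 or Heart WT 3, and 2 without EC WT 2, Heart WT 2 or Heart WT 4.

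**Figure D5:**
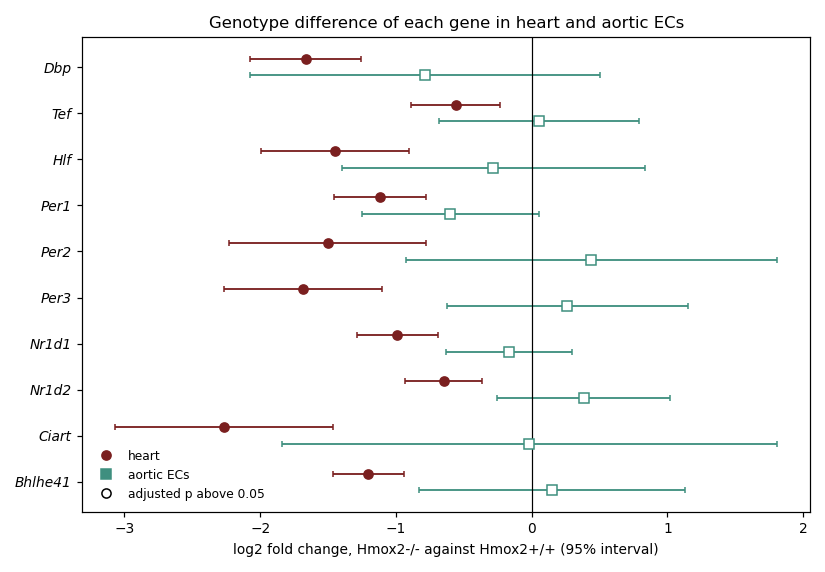
Log2 fold change of each gene in Hmox2-/- against Hmox2+/+ mice (x axis, bars are 95% intervals of the edgeR fit) in heart (circles) and aortic ECs (squares), with open symbols where the adjusted p was above 0.05. All heart intervals lie below 0 and all EC intervals include 0.

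Compared per length, in TPM, the leading genes in Heart WT were Dbp (52.5 ± 8.89, n = 4), Tef (44.6 ± 10.1), Nr1d1 (34.8 ± 8.58) and Nr1d2 (25.5 ± 2.15), and each of these neighbours overlapped in range. Per1 (14.3 ± 2.30) and Ciart (11.0 ± 4.80) followed, and the lowest were Per3 (3.62 ± 0.98) and Per2 (1.71 ± 0.64), whose ranges did not overlap each other. In Heart KO the order changed at the top, with Tef (38.5 ± 4.66 TPM, n = 3) above Dbp (23.3 ± 3.17 TPM) and no overlap between them. Nr1d1 (21.5 ± 3.38 TPM) and Nr1d2 (20.6 ± 5.01 TPM) came next, and Per2 was again the lowest, at 0.79 ± 0.33 TPM. In EC WT, Dbp (93.8 ± 43.8 TPM, n = 3), Tef (90.9 ± 37.8 TPM) and Nr1d1 (72.1 ± 18.7 TPM) led with overlapping ranges, and Bhlhe41 was the lowest at 3.83 ± 1.89 TPM. In EC KO, Tef (86.3 ± 31.1 TPM, n = 3) led and Bhlhe41 (2.89 ± 1.13 TPM) was again the lowest.

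Between tissues of Hmox2+/+ mice, 3 of the 10 genes were called, all higher in heart, where 32.1% of 15938 genes were called higher and 65.8% in either direction. These were the repressors Ciart (log2 fold change 2.39, SE 0.63, adjusted p = 0.00391) and Bhlhe41 (1.85, SE 0.31, adjusted p = 0.000114), and Nr1d2 (1.06, SE 0.22, adjusted p = 0.000658). The other 7 estimates lay between -0.20 for Per2 and 0.69 for Hlf. These values depend on the TMM scaling between tissues. In TPM without it, Nr1d2 was 25.5 ± 2.15 (SD, n = 4) in Heart WT and 25.1 ± 8.17 (SD, n = 3) in EC WT, and the means of Hlf (6.92 against 9.61 TPM) and Dbp (52.5 against 93.8 TPM) were lower in Heart WT, not higher. With counts derived from TPM and scaled by TMM, Nr1d2 was again higher in heart (1.07 log2, adjusted p = 0.00117). Tissue and RNA extraction kit cannot be told apart in this comparison.

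Within each gene, kallisto divided the counts over annotated transcripts, and the main transcript was stable for some genes and not for others. Nr1d1-201 held 98.1% of the TPM of Nr1d1 in Heart WT and 98.9% in Heart KO, and Per2-201 held 100% of that of Per2 in each group. Dbp-201, the leading coding transcript, was 26.7 ± 13.1 TPM in Heart WT and 9.46 ± 1.17 TPM in Heart KO, and Dbp-205, a retained-intron transcript, was 5.05 ± 1.32 and 1.16 ± 0.23 TPM. The other retained-intron transcript, Dbp-202, was 3.87 ± 0.93 TPM in Heart WT and 4.74 ± 1.10 TPM in Heart KO. Dbp shares 16.9% of its 31-base words with Sphk2, a sphingosine kinase gene on the opposite strand that was higher in Heart KO (log2 fold change 0.72, adjusted p = 0.00347), and the part of Sphk2 reads in any Dbp transcript was not tested. Ciart shares 20.8% of its words with the pseudogene Gm9176, which had 0 counts in every library. Per3-204, a transcript without a defined coding sequence, was 1.04 ± 0.11 TPM in Heart WT and 0.14 ± 0.24 TPM in Heart KO. In ECs it was 2.21 ± 0.85 TPM in EC WT and 3.56 ± 1.07 TPM in EC KO. With protein-coding transcripts alone, all 10 genes were still called lower in Heart KO, but Per3 was not called in the interaction.

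The genes whose level most resembled the mean of the 10 members over the 7 heart libraries, by Pearson's r of log2 CPM among 9400 genes, were Pnn (r = 0.991), Appl1 and Tent5a (0.987 each), and Rbm5 and Zranb1 (0.985 each). The members themselves had r values between 0.804 for Nr1d1 and 0.994 for Per1 with the mean that contains them. Over the 6 EC libraries the nearest genes among 10881 were N4bp2 (0.977), Disp1 (0.973), Pom121 (0.963), Senp5 (0.962) and Zfp335 (0.961). Libraries of a tissue fall into genotype groups, and Heart WT 1 was shallower than the other heart libraries, so the values are given as a description. None of the heart genes recurred in the EC list.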

How the data were processed

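Poly(A) RNA was sequenced as directional paired-end libraries from heart tissue and aortic ECs. The deposited estimated counts, effective lengths and TPM values were made by the authors with kallisto 0.44.0 at default settings, library by library, without pooling or filtering. The methods name GENCODE M32 (GRCm39) as the index and the labels name mm10 as well. TPM values, per the file headers, are relative to each library's own total.

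Of 118489 transcripts, 97.2% were matched to GENCODE M39 by identifier without version, and unmatched transcripts held 0.755% to 1.01% of the counts. Per gene, the estimated counts of its transcripts were added and rounded. Genes kept by filterByExpr (minimum count 10) were TMM-normalized and tested tissue by tissue with edgeR 4.0.16 (R 4.3.3). The interaction and the tissue comparison were fitted over all 13 libraries. The authors' effective lengths entered only the counts derived from TPM. The members, lists and rules for named genes were chosen with earlier results of these data known. Named were the members, Hmox2, up to 6 genes per other list that were called in either tissue at a mean above 1 CPM, and, by Pearson's r, the 5 genes most like the members' mean in each tissue. Clock, Npas2, Bmal1 and Nfil3 in ECs, the Y-linked genes and the overlapping genes Thra, Sphk2 and Gm9176 were named after their values were seen. Some genes of these lists are not reported here and were left out of the lists' counts, medians and means. The fits were tested on simulated data. Alternatives were DESeq2 1.42.0, other normalizations, filters, transcript sets, an offset for length and GC content, the replicate number as a block, and each library left out in turn. Nothing says whether libraries of a group came from separate litters or days, and p-values measure the spread between these libraries. Words were all 31-base stretches of the transcripts. Promoter windows were RefSeq's (GRCm38.p6), and gene positions are GENCODE M39 (GRCm39). Figures were drawn with matplotlib 3.10.9.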

Additional observations from a re-analysis of the deposited data

Results flagged for a closer look

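The genotype difference in heart and that in aortic ECs differed for 4 of the 10 genes by the tissue by genotype term (edgeR, adjusted over 15938 genes). Over all genes tested, 12.7% were called in this direction and 28.8% in either. The count of members called ran from 1 to 9 with a library left out, and the EC KO group was mixed in Y-linked RNA. The heart difference minus the EC difference was -1.90 log2 for Per3, -0.78 for Nr1d1, -0.99 for Nr1d2 and -1.31 for Bhlhe41. In CPM, all 3 Heart KO libraries were below all 4 Heart WT libraries for each of these genes, while in ECs the groups overlapped for each of them. EC KO 1 was the lowest EC library in CPM for each of them. In TPM the heart groups overlapped for Nr1d2, with Heart KO 3 at 26.4 TPM and Heart WT 1 at 22.5 TPM. No heart library of the Hmox2+/+ group stood apart from the other 3 for any of the 10 genes by Dixon's 95% criterion. Groups of 3 were too small for that check.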

How the results depend on the processing

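The count of 10 dusk genes lower in Hmox2-/- heart was 7 to 10 under every alternative, and 9 to 10 with a library left out. The EC count was 0 to 0 with a library left out and 2 with the replicate block (Dbp, adjusted p = 0.0376, and Per1, adjusted p = 0.0413). The interaction count was 1 to 9 with a library left out, 4 with the replicate block and 2 with the replicate block with length and GC content offset, and the tissue count 3 to 4 with a library left out. In heart that joint setting lost Per2 (adjusted p = 0.0676) and Nr1d2 (-0.26, adjusted p = 0.0644). Other heart estimates also moved with the setting, and all 10 stayed below 0. They came as near to 0 as -1.055 for Hlf, -0.846 for Per1, -1.087 for Per2, -1.316 for Per3 and -0.99 for Bhlhe41. In the interaction, Nr1d2 was -0.32 (adjusted p = 0.417) with the offset alone, Bhlhe41 -0.71 (adjusted p = 0.265) with counts from TPM and Per3 -1.41 (adjusted p = 0.105) with protein-coding transcripts. The cause was not tested.

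Signs changed only for differences that were not called. In ECs these were Ciart with upper-quartile normalization (0.04), protein-coding transcripts (0.006), the offset (0.147) and the joint setting (0.095), Bhlhe41 with counts from TPM (-0.247), Tef with the block (-0.002) and Nr1d2 with the joint setting (-0.022). With a library left out, EC values ran from -0.135 to 0.346 for Tef, -0.231 to 0.508 for Bhlhe41, -0.48 to 0.463 for Ciart, -0.715 to 0.143 for Hlf and -0.351 to 0.011 for Nr1d1. Between tissues, upper-quartile normalization gave -0.038 for Tef, -0.043 for Per1 and -0.059 for Per3, the offset -0.007 for Per3 and 0.082 for Nr1d1, the block -0.075 and 0.028, and the joint setting -0.164 and 0.187, with -0.04 for Per1. With a library left out the tissue values ran from -0.066 to 0.273 for Tef, -0.111 to 0.236 for Per3, -0.015 to 0.348 for Per1, -0.214 to 0.012 for Nr1d1 and -0.54 to 0.166 for Per2.

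Over all genes, the heart count of 4618 was 2899 with the block, 2170 with the joint setting, 927 with the fold change criterion and 2888 to 5686 with a library left out (lowest without Heart KO 2). The EC count of 2766 was 4319 with all libraries in 1 fit, 1420 with the fold change criterion, 5402 at an unadjusted p of at most 0.05 and 638 to 3596 with a library left out (lowest without EC KO 3), and the interaction count of 4596 was 2818 with the joint setting. Deviations from group means, over all genes tested, correlated between -0.05 and 0.18 for same-numbered libraries and between -0.23 and 0.16 for differently numbered ones. The numbers were not taken as pairs. These correlations over all genes do not decide whether the numbers pair libraries for the clock genes, which was not tested. Heart WT 1 held 29 to 693 counts of these genes, which limits Ciart, Per2 and Per3 most.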
